A study of Mus musculus with 6 samples.

Results

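The vehicle-injected arcuate nucleus was described from its 2 RNA-seq libraries, chosen as every library whose label gives vehicle as the treatment, out of 6 in the series. Levels were followed across all 21461 genes of the deposited table, and no treatment was compared. The mice were males of 10 weeks, of the C57BL/6 strain, and their hypothalamic ARC was dissected 24 h after an intraperitoneal injection of vehicle. The sources used here do not say what the vehicle of this experiment contained, and the sample titles and column names call these libraries fed. Poly(A) RNA was made into stranded libraries. Whether each library came from its own mouse is not stated, so the spread between them may be technical. The other 4 libraries, from mice given Dex or Dex with Zj7, were not used. In bulk tissue, fewer cells of a type and less RNA per cell cannot be told apart.

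The arcuate nucleus lies at the base of the third ventricle and reads signals of energy stores from the blood. As background, neurons that make AgRP and NPY drive feeding, neurons that make POMC and CART restrain it, and both carry receptors of leptin, insulin and other hormones. Other arcuate neurons make the releasing factors and dopamine that govern the pituitary. A neuropeptide is made as a long precursor, stored in dense core granules, cut by prohormone convertases and released to act on receptors coupled to G proteins, so the RNA of precursors, enzymes and receptors can each be read in one tissue.

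The libraries held 57060342 counts in replicate 1 and 53400496 in replicate 2. Levels are given as FPKM, in which fragments are divided by transcript length and by library size so that genes can be compared, and below as the value of replicate 1 followed by that of replicate 2. Ratios between the libraries were taken from counts scaled by TMM (trimmed mean of M values), for the 15628 genes whose mean reached 1 CPM (a count scaled to a library of 1000000). Across those genes the log2 ratio had a median of 0.00 and an SD of 0.20, 91.5% were within 1.25-fold, and across all genes log2(FPKM + 1) correlated at r = 0.997 (a description over 21461 genes of the same tissue, which are not independent). A gene was said to differ between the libraries when its ratio passed 1.5-fold and the exact 95% interval of the ratio, which covers counting error only, lay on one side of 1. Such genes numbered 345 (2.21% of those compared), with 120 higher in replicate 2 (0.768%) and 225 lower (1.44%). This compares libraries of one group and has no test. The labelled sex was met by the data, with the Y-linked genes *Eif2s3y*, *Ddx3y*, *Kdm5d* and *Uty* at 4.09 to 18.7 FPKM and *Xist*, the RNA of the inactive X chromosome, at 0.00928 and 0.00329.

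Of all genes, 13909 (64.8%) had a mean of at least 1 FPKM, 6221 at least 10, 447 at least 100 and 13 at least 1000. Protein-coding genes were 15801 of the table and held 95.3% and 95.2% of all FPKM, while 3294 genes of long noncoding RNA held 1.57% in each library. The agreement of the libraries followed the level. The median difference between them was 1.40-fold for genes under 0.1 FPKM, 1.25-fold between 0.1 and 1 FPKM, 1.07-fold between 1 and 10 FPKM, and 1.04-fold between 10 and 100 FPKM.

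The most abundant RNAs were those of the mitochondrial genome. It encodes 13 proteins of the respiratory chain, 2 rRNAs and 22 tRNAs, and all 37 genes were in the table. Together they held 16.1% and 15.5% of the FPKM and 5.81% and 5.58% of the counts, and none of the 27 that reached 1 CPM differed between the libraries. *COX1*, a core subunit of cytochrome c oxidase, was the highest gene at 9761 and 9175 FPKM. CYTB of complex III followed at 5512 and 5255 FPKM, and *ATP6* of the ATP synthase at 4734 and 4395 FPKM. Genes of the mitochondrial genome took the first 13 ranks, *ND1*, *COX2*, *ATP8*, *ND4*, *COX3*, *ND2*, *ND5* and *ND4L* coming after these 3 and the rRNAs mt-Rnr2 and mt-Rnr1 closing the run. Since *ATP8* and *ATP6*, and *ND4L* and *ND4*, overlap on the genome, their reads may have been split between them.

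The 20 highest genes held 17.1% and 16.4% of the FPKM, and 7 of them were nuclear. *Eef1a1*, the elongation factor that brings tRNA to the ribosome, led these at 1005 and 980 FPKM. *Fth1*, the heavy chain of the iron store ferritin, stood at 883 and 941 FPKM. *Apoe*, the lipid carrier made by astrocytes, stood at 891 and 913 FPKM. The ranges of these last genes overlapped. *Bc1*, a small cytoplasmic RNA of neurons, stood at 858 and 911 FPKM from only 8205 counts in replicate 1, since its transcript is short. *Pmch*, the precursor of melanin-concentrating hormone (MCH), stood at 842 and 786 FPKM, and *Mbp*, a myelin protein, at 775 and 853 FPKM. *Ptgds*, the prostaglandin D synthase of meninges and oligodendrocytes, was the exception in agreement, at 1090 and 648 FPKM, a ratio of 0.60 (0.593 to 0.609). When all nuclear genes were ranked alone, a ranking added after the values were seen, those that followed included *Ubb*, *Hspa8*, *Cpe*, *Meg3*, *Cst3*, *Snhg11*, *Sparc*, *Aldoa*, *Sparcl1*, *Ppia*, *Nap1l5* and *Zwint*. The 20 highest nuclear genes held 5.34% and 5.22% of the nuclear FPKM. They join general cell functions (translation, protein folding, glycolysis) with neuronal ones (the peptide-processing enzyme *Cpe*) and glial ones (*Apoe*, *Mbp*, *Sparcl1* and *Cst3*).

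**Figure D1:**
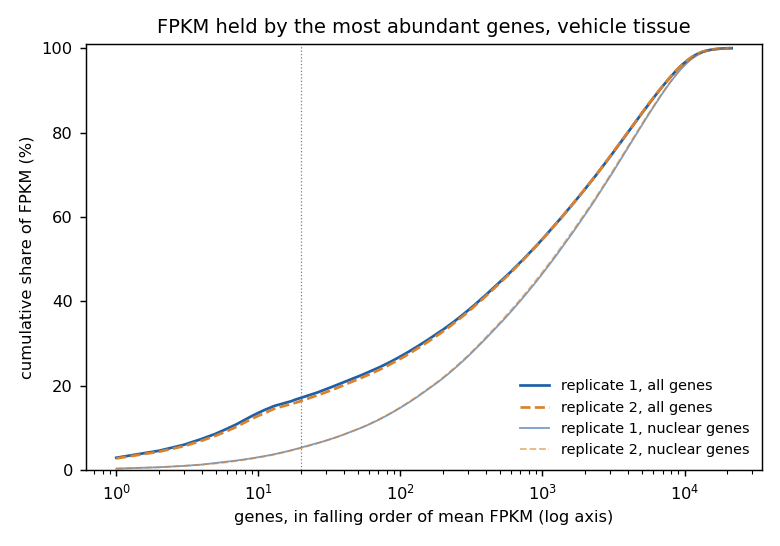
Cumulative share of the FPKM (y axis, percent) over genes in falling order of mean FPKM (x axis, log scale), for each vehicle library, with all genes (thick lines) and with nuclear genes alone (thin lines). The dotted line marks the 20 highest genes, which hold 17.1% and 16.4% of the FPKM with all genes and 5.34% and 5.22% with nuclear genes alone, and the lines of the libraries lie over each other.

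Precursors of neuropeptides formed a steep order. Of 84 listed genes (neuropeptides, granule proteins that are cut into peptides, and some related secreted factors) 65 were in the table, 47 had a mean of at least 1 FPKM, 32 at least 10 and 9 at least 100. They held 0.930% and 0.946% of all FPKM, and *Pmch* with *Hcrt* alone held 0.321% and 0.320%. Their median was 7.35 FPKM, beside 3.37 over all genes. *Galp*, *Npw*, *Rln3*, the urocortins (*Ucn*, *Ucn2* and *Ucn3*), *Cort* and 12 others were not among the genes analysed here. Of the 50 precursors compared between libraries, 6 differed (12%, beside 2.21% of all genes), with 2 higher in replicate 2 (*Pomc* and *Insl5*) and 4 lower (*Vip*, *Gnrh1*, *Edn3* and *Igf2*).

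The 4 precursors that define the feeding circuit of the arcuate nucleus stood well below the top. *Agrp* (NCBI gene 11604, chr8:105566695-105579845), which encodes the antagonist of melanocortin receptors, stood at 7.53 and 7.18 FPKM, from 364 and 281 counts. *Npy* (gene 109648, chr6:49822710-49829507), its partner in the same neurons, stood at 55.2 and 39.8 FPKM. *Npy* thus exceeded *Agrp* by 7.33-fold and 5.55-fold. *Cartpt* (gene 27220, chr13:99898483-99910179), the precursor of CART, stood at 56.8 and 59.2 FPKM. *Pomc* (gene 18976, chr12:3954945-3960643), the precursor of α-MSH and β-endorphin, stood at 25.3 and 118 FPKM, from 1621 and 7079 counts. Of the precursors compared it had by far the widest gap, a ratio of 4.67 (4.43 to 4.93). It lay below *Cartpt* in replicate 1 and above it in replicate 2, with *Pomc* over *Cartpt* at 0.445 and 1.99. The ratio of *Npy* was 0.73 (0.679 to 0.782), that of *Agrp* 0.83 (0.704 to 0.968) and that of *Cartpt* 1.05 (0.997 to 1.10), none of which passed 1.5-fold.

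Other genes known from POMC neurons had smaller ratios. They are not confined to those neurons, so their values cannot show a change in POMC neurons alone. The ratio was 1.08 for *Nhlh2*, 0.92 for *Isl1*, 0.96 for *Tbx3* and 1.20 for *Prdm12*, transcription factors of these neurons, and 0.92 for the convertase *Pcsk1* and 0.96 for *Pcsk2*. Corticotrophs of the pituitary also make POMC, and 3 of the 4 pituitary markers in the table were higher in replicate 2 (75%, beside 0.768% of all genes). The remaining marker did not differ between the libraries, and the list was chosen with earlier results of these data known. The 3 higher markers were all under 1 FPKM in both libraries. These were *Tbx19*, the factor of corticotrophs, at 0.535 and 0.959 FPKM (ratio 1.79, 1.37 to 2.36), *Lhb*, a subunit of luteinizing hormone, at 0.447 and 0.953 FPKM, and *Oacyl* at 0.449 and 0.944 FPKM. The defining hormones *Gh*, *Prl*, *Cga*, *Tshb* and *Fshb* with *Pou1f1* and *Pitx1* were not among the genes analysed here. The part of pituitary tissue in the *Pomc* difference was not tested.

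Peptides listed as those by which arcuate neurons act on the pituitary and on each other were spread over a wide range. Of 14 in the table, 10 had a mean of at least 10 FPKM. These are levels of the whole dissected tissue and are not confined to arcuate neurons. *Trh*, *Pdyn* and *Penk* are also among the markers used here for the paraventricular nucleus, lateral hypothalamus and striatum. *Sst*, the precursor of somatostatin, which restrains growth hormone, led at 151 and 172 FPKM. *Ghrh*, whose product releases growth hormone, stood at 9.74 and 11.2 FPKM. *Penk*, the enkephalin precursor, stood at 57.3 and 58.6 FPKM. The precursor of substance P, *Tac1*, was close to it at 60.7 and 52.8 FPKM, and *Trh* (thyrotropin-releasing hormone) and *Gal* (galanin) followed at 42.6 and 37.1 FPKM and at 32.4 and 29.6 FPKM. Neurokinin B and dynorphin are made with kisspeptin by the neurons that pace gonadotropin release. *Tac2*, the precursor of neurokinin B, stood at 25.7 and 24.8 FPKM, and *Pdyn*, that of dynorphin, at 24.3 and 19.7 FPKM. *Kiss1* itself stood at only 0.474 and 0.684 FPKM, from 41 and 51 counts, so that its ratio of 1.33 (0.865 to 2.06) is not told from 1. *Gnrh1* at 1.44 and 0.928 FPKM was the only one of the 11 compared that differed between libraries (9.09%, beside 2.21% of all genes).

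The highest peptide precursors of the tissue are known from nuclei next to the arcuate. *Pmch* stood at 842 and 786 FPKM, or 112 and 110 times *Agrp*. *Hcrt*, the precursor of orexin, stood at 226 and 273 FPKM. Both are defining genes of lateral hypothalamic neurons in the mouse. *Avp* (vasopressin) stood at 152 and 114 FPKM and *Oxt* (oxytocin) at 53.6 and 43.8 FPKM, known from the paraventricular and supraoptic nuclei. *Adcyap1*, the PACAP precursor of the ventromedial nucleus, stood at 29.1 and 26.1 FPKM. *Vip*, of the suprachiasmatic nucleus, was lower in replicate 2, at 8.23 and 5.13 FPKM. *Crh*, the releasing hormone of the stress axis, stood at 1.31 and 1.17 FPKM. In the genome *Pmch* overlaps *Parpbp*, which stood at 0.385 and 0.296 FPKM, and the sources used here do not say whether counting used strand.

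Granins and other proteins of dense core granules were among the most abundant of the list. *Scg2* stood at 374 and 357 FPKM, *Chga* at 128 and 135 FPKM and *Chgb* at 112 and 110 FPKM. *Pcsk1n*, which encodes the inhibitor of convertase 1 named proSAAS, stood at 181 and 211 FPKM, and *Vgf* at 84.8 and 102 FPKM. *Agt*, the angiotensinogen of astrocytes, stood at 128 and 120 FPKM. In the order of the whole list (*Pmch*, *Scg2*, *Hcrt*, *Pcsk1n*, *Sst*, *Avp*, *Chga*, *Agt*, *Chgb*, *Vgf*, *Pomc*, *Cartpt*, *Penk*, *Tac1*, *Oxt*, *Npy*), the first 4 were separated from their neighbours in both libraries. From *Sst* to *Agt* each range overlapped that of the next gene, and so it did from *Vgf* to *Trh*. Genes further apart in these runs could be separate. *Sst* lay above *Chga* and *Agt* in both libraries, and *Vgf* above *Cartpt*, *Npy* and *Trh*.

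Promoters are shown for 6 abundant precursors, from RefSeq on GRCm38.p6, to show a motif of the basal machinery (TATAAA) or of the cAMP pathway (TGACGTCA), which many peptide genes are known to carry. The 6 were shown because they carry one, and the abundant *Pcsk1n*, *Avp* and *Chga* had neither where searched. Capitals mark the motif, each run is written 5′ to 3′ along the gene, and positions count back from the annotated start at position 1. The runs span -100 to -1, except that of *Cartpt*, which spans -120 to -21 and lies inside the gene's span given above.
*Pmch*: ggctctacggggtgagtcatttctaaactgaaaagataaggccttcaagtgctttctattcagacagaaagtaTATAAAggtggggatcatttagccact
*Hcrt*: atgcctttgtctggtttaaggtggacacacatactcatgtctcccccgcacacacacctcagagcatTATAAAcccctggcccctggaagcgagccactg
*Pomc*: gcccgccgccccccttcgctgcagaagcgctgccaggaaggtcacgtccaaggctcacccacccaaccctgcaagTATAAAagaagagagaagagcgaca
*Sst*: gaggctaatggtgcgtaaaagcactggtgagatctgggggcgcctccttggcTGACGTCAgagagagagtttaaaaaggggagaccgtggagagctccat
*Cartpt*: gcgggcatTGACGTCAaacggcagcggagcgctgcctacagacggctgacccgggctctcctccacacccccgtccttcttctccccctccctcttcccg
*Scg2*: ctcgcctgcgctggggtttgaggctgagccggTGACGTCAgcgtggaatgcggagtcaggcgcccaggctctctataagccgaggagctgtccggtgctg
TATAAA began at -27 in *Pmch* (chr10:88090972-88091071, plus strand), at -33 in *Hcrt* (chr11:100762932-100763031, minus strand) and at -25 in *Pomc* (chr12:3954845-3954944, plus strand). TGACGTCA, which reads the same on both strands, began at -48 in *Sst* (chr16:23890845-23890944, minus strand), at -112 in *Cartpt* (chr13:99900704-99900803, minus strand) and at -68 in *Scg2* (chr1:79440027-79440126, minus strand). On the gene's strand, with its first base between -40 and -20, TATAAA was found for 10 of the 51 neuropeptide genes with a promoter entry (19.6%), beside 249 of 14918 genes of the table with one (1.67%). By level, it was found for 3.54% of genes of at least 100 FPKM, 0.870% from 10 to 100, 1.53% from 1 to 10 and 2.55% under 1 FPKM. It was in 1.99% of all 32851 promoters. Anywhere between -250 and +50, TGACGTCA was found for 4 of the 51 (7.84%), beside 2.95% of the genes of the table and 1.79% of all promoters. By level, it was found for 8.55% of genes of at least 100 FPKM, 3.48% from 10 to 100, 3.37% from 1 to 10 and 1.40% under 1 FPKM. A match describes the letters only. *Vgf*, *Penk*, *Agrp* and *Crh* were among the 14 neuropeptide genes with no entry.

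**Figure D2:**
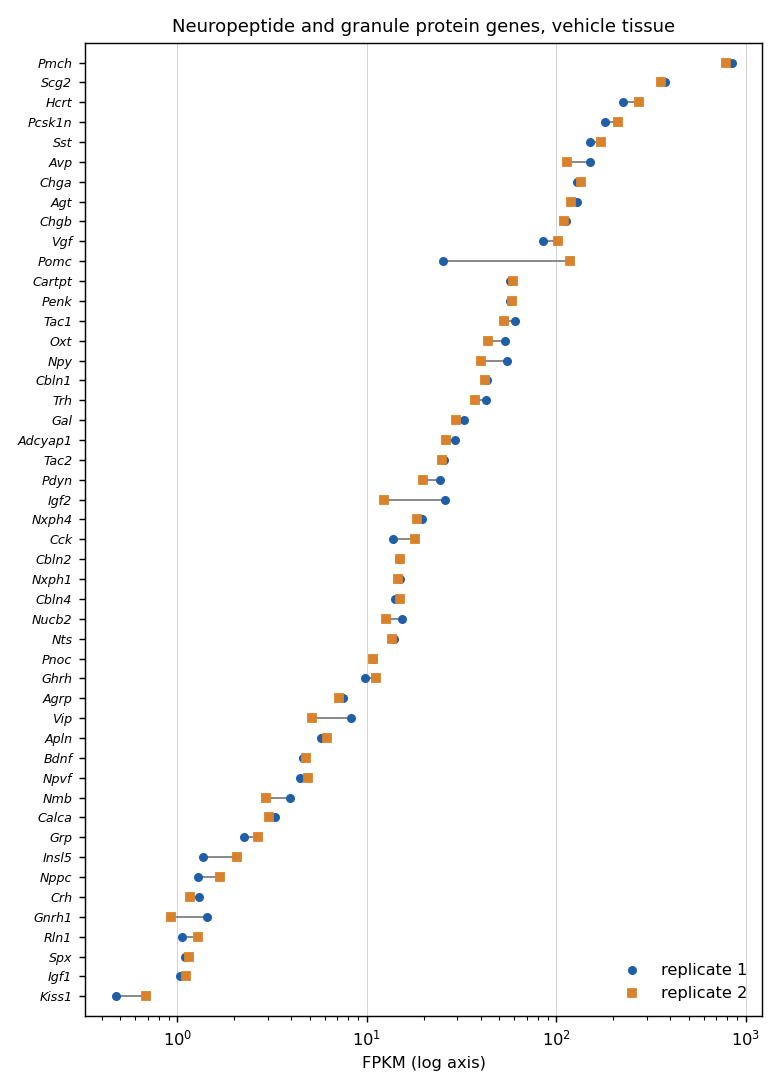
FPKM (x axis, log scale) of the neuropeptide and granule protein genes with a mean of at least 1 FPKM, and of Kiss1, in vehicle replicate 1 (circles) and replicate 2 (squares), with a line joining the values of a gene. Most pairs nearly coincide, from Pmch at 842 and 786 down, while Pomc spans 25.3 to 118.

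Enzymes that turn precursors into peptides were all present. All 18 listed genes were in the table, 17 had a mean of at least 1 FPKM, and 0 of 18 differed between libraries, beside 2.21% of all genes. *Cpe*, the carboxypeptidase that trims the cut ends, led at 720 and 728 FPKM. *Scg5*, the chaperone of convertase 2, stood at 137 and 126 FPKM, *Scg3* at 105 and 95.3 FPKM, and *Pam*, which amidates peptides, at 95 and 86.6 FPKM. Of the convertases, *Pcsk2* stood at 55.2 and 52.8 FPKM and *Pcsk1* at 17.6 and 16.1 FPKM. *Pcsk2* exceeded *Pcsk1* by 3.13-fold and 3.29-fold.

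Genes of fast transmitters placed both GABA and glutamate neurons in the tissue. *Gad1* and *Gad2*, which make GABA, stood at 95.2 and 93.1 FPKM and at 73.8 and 71.8 FPKM. *Slc32a1*, the vesicular GABA transporter, stood at 38.7 and 42.7 FPKM. *Slc17a6*, the vesicular glutamate transporter of the hypothalamus, stood at 69.5 and 68.0 FPKM. *Gad1* thus exceeded *Slc17a6* by 1.37-fold in each library. Genes by which glia handle these transmitters were higher, with *Glul*, *Slc6a11* and *Slc1a3* at 397 and 423, 224 and 216, and 160 and 146 FPKM. *Slc17a7*, the vesicular transporter of cortical glutamate neurons, was near the floor, at 0.168 and 1.20 FPKM from 31 and 206 counts, and had the widest ratio of the 15628 genes compared, 7.11 (4.86 to 10.7). Of the cortical and hippocampal list, *Camk2a* and *Nrgn* had ratios of 1.03 and 1.04, *Neurod2* of 1.10, and *Neurod6* of 0.52, at 1.14 and 0.587 FPKM.

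The dopamine genes of the arcuate were present at moderate levels. *Th*, the enzyme that limits dopamine synthesis, stood at 16.6 and 19.9 FPKM (ratio 1.21, 1.13 to 1.29). *Ddc* and *Slc18a2*, which complete synthesis and fill vesicles, stood at 20.3 and 20.7 FPKM and at 14.8 and 14.1 FPKM. *Slc6a3*, the plasma membrane dopamine transporter, stood at 1.61 and 5.67 FPKM, from 345 and 1149 counts. Its ratio of 3.56 (3.16 to 4.03) stood beside ratios of 1.03 for *Ddc* and 0.96 for *Slc18a2*. *Hdc*, which makes histamine, stood at 25.4 and 20.4 FPKM, as known from the tuberomammillary nucleus. *Tph2*, of serotonin synthesis, was at 0.112 and 0.164 FPKM, and *Dbh*, *Slc6a2* and *Slc6a4* were not among the genes analysed here. *Chat*, of acetylcholine, was at 0.278 and 0.241 FPKM.

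Receptors of metabolic hormones had a median of 6.71 FPKM, beside 3.37 over all genes. Of 35 listed, 32 were in the table, 29 had a mean of at least 1 FPKM and 10 at least 10. *Insr*, the insulin receptor, stood at 9.13 and 8.80 FPKM. *Lepr*, the leptin receptor, stood at 2.45 and 1.81 FPKM, from 629 and 445 counts (ratio 0.76, 0.669 to 0.856). *Insr* exceeded *Lepr* by 3.72-fold and 4.85-fold. *Ghsr*, the ghrelin receptor, stood at 2.57 and 1.79 FPKM (ratio 0.69, 0.619 to 0.765). Neither *Lepr* nor *Ghsr* passed 1.5-fold. The intervals of both lay below 1, but the interval lay off 1 for 37.0% of all genes compared. *Adipor1* and *Adipor2*, the adiponectin receptors, stood at 18.6 and 19.4 FPKM and at 18.7 and 19.3 FPKM. *Glp1r*, the GLP-1 receptor, stood at 2.46 and 2.42 FPKM and *Calcr*, the calcitonin receptor, at 7.88 and 7.45 FPKM. *Ntrk2*, the receptor of BDNF, was the highest of the list at 146 and 135 FPKM, followed by *Fgfr3*, *Cntfr* and *Fgfr1* at 24.1 to 40.7 FPKM. *Ramp3*, which pairs with the calcitonin receptor to form an amylin receptor, was the one gene of the 30 compared that differed (3.33%, beside 2.21% of all genes), at 1.62 and 4.31 FPKM. *Klb*, the coreceptor of FGF21, stood at 0.0606 and 0.0268 FPKM from 13 and 6 counts, a depth at which no difference can be read.

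Melanocortin and NPY receptors had a median of 2.46 FPKM. *Mc3r* and *Mc4r*, the melanocortin receptors of the brain, stood at 2.67 and 2.26 FPKM and at 1.02 and 0.949 FPKM. *Mc3r* exceeded *Mc4r* by 2.61-fold and 2.38-fold. *Mrap2*, their accessory protein, stood at 14.2 and 14.5 FPKM, and *Sdc3*, a proteoglycan that binds AgRP, at 76.7 and 84.0 FPKM. *Npy2r*, *Npy1r* and *Npy5r* stood at 6.84 and 5.63, 5.43 and 5.03, and 2.34 and 2.15 FPKM. *Oprl1*, the nociceptin receptor, was the highest of the opioid family at 35.9 and 34.9 FPKM, or 8.22 and 8.25 times *Oprm1*, the µ opioid receptor. All 9 somatostatin and opioid receptors had a mean of at least 1 FPKM, with *Sstr1* at 7.01 and 7.24 FPKM highest of the somatostatin receptors and *Sstr5* at 1.08 and 1.05 FPKM lowest. Among other peptide receptors, *Ntsr2* of astrocytes led at 81.7 and 87.1 FPKM, then *Adcyap1r1*, *Sort1*, *Ednrb* and *Npr2* at 16.1 to 62.4 FPKM. The MCH receptor *Mchr1* stood at 5.43 and 4.90 FPKM, far below its ligand's precursor. Of 51 neuropeptide receptors compared, 1 differed between libraries (1.96%, beside 2.21% of all genes), *Grpr* at 1.13 and 0.667 FPKM.

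Receptors of GABA and glutamate had medians of 21.6 and 12.2 FPKM, and those of monoamines and acetylcholine a median of 2.48 FPKM. Of 92 listed, 85 were in the table and 33 had a mean of at least 10 FPKM. *Gabbr1*, of the GABA-B receptor, stood at 148 and 150 FPKM. *Grin1*, the obligate NMDA receptor subunit, stood at 86.9 and 90.1 FPKM, and the AMPA receptor subunit *Gria1* at 81.5 and 75.9 FPKM. Of amine receptors, *Hrh3* (histamine) stood at 21.4 and 25.5 FPKM and *Htr2c* (serotonin), which POMC neurons are known to carry, at 21.5 and 19.6 FPKM. *Gabrd*, the extrasynaptic δ subunit, was the one gene of 76 compared that differed (1.32%, beside 2.21% of all genes), at 0.468 and 1.30 FPKM.

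Transcription factors of arcuate neurons had a median of 3.16 FPKM, beside 3.37 over all genes. Of 32 listed, 31 were in the table, 27 had a mean of at least 1 FPKM and 2 at least 10. *Otp*, a homeodomain factor of AgRP neurons, led at 13.4 and 12.3 FPKM. *Nkx2-1*, which sets ventral hypothalamic identity, stood at 12.4 and 10.5 FPKM. *Bsx*, the homeodomain factor that drives *Agrp* and *Npy* and with which the study is concerned, stood at 10.4 and 8.59 FPKM. The next were *Dlx1*, *Six3* and *Isl1*, at 8.74 to 9.20, 7.30 to 9.80 and 7.44 to 8.15 FPKM, and their ranges overlapped with neighbours. *Zfhx4*, *Pou3f2*, *Nkx2-2* and *Dlx6* stood between 3.58 and 7.02 FPKM. *Tbx3* stood at 3.01 and 2.77 FPKM, and *Rax*, of tanycytes, at 1.51 and 1.49 FPKM. None of the 30 factors compared differed between libraries, beside 2.21% of all genes.

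Steroid receptors were present. *Nr3c1*, the glucocorticoid receptor (GR), stood at 14.4 and 13.1 FPKM, from 5938 and 5060 counts, and its range overlapped that of *Otp*. *Nr3c2*, the mineralocorticoid receptor, stood at 5.09 and 4.39 FPKM. *Nr3c1* exceeded *Nr3c2* by 2.84-fold and 2.99-fold. *Pgr*, the progesterone receptor, stood at 5.70 and 4.67 FPKM and *Esr1* at 2.51 and 2.58 FPKM, while *Esr2* was at 0.164 and 0.220 FPKM. Of other nuclear receptors, *Thra* was far above the rest at 154 and 160 FPKM, or 36.3 and 35.9 times *Thrb*, and the clock repressors *Nr1d1* and *Nr1d2* followed at 28.5 to 31.5 FPKM. Among factors driven by signals of feeding and insulin, *Stat3* of leptin signalling stood at 15.6 and 14.5 FPKM and *Foxo1* of insulin signalling at 5.50 and 4.46 FPKM.

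**Figure D3:**
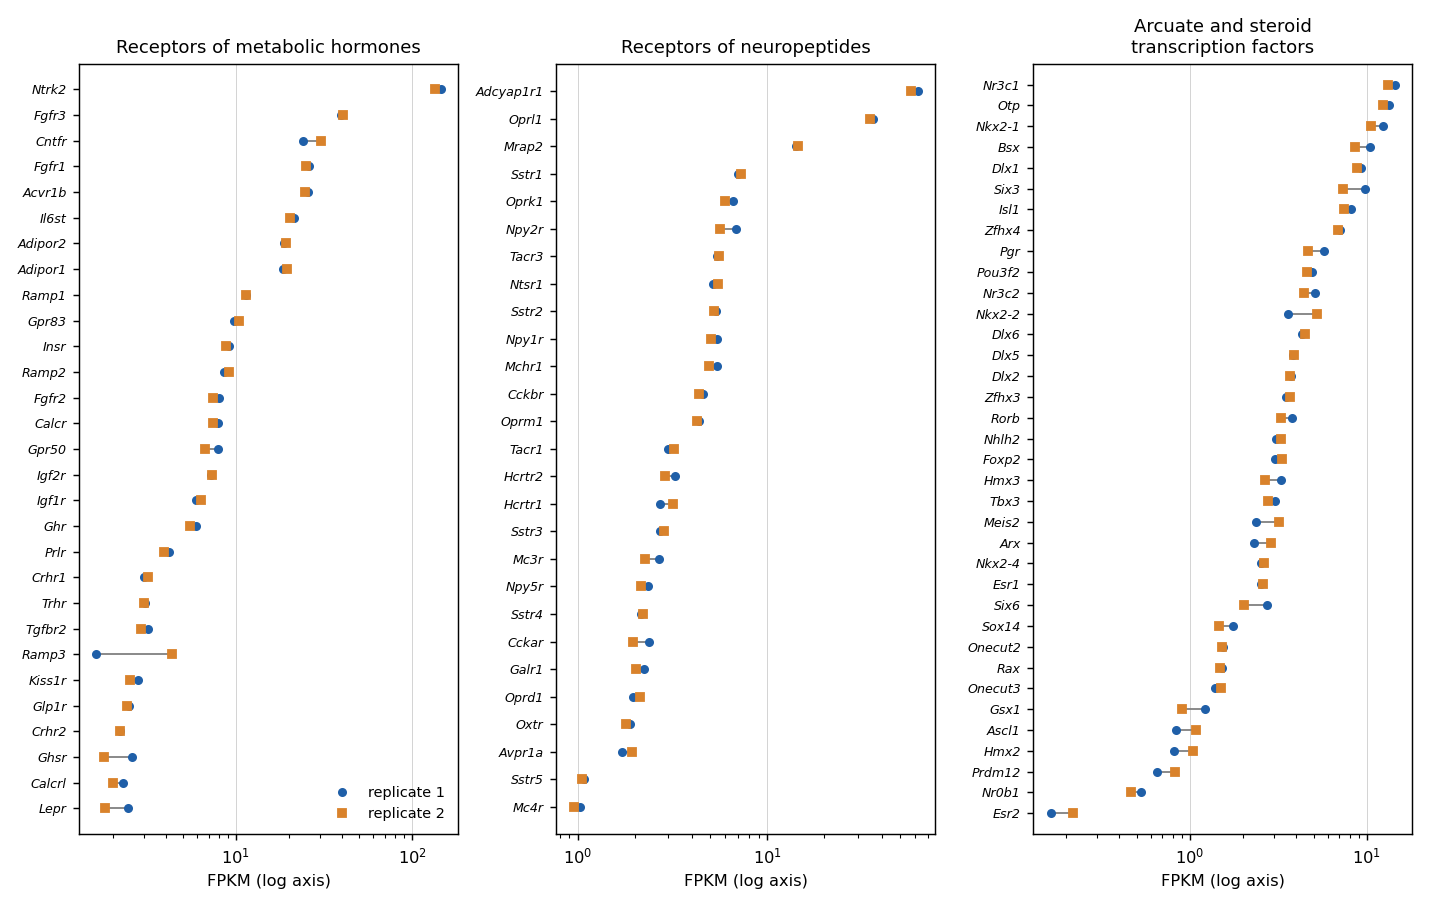
FPKM (x axes, log scale) in vehicle replicate 1 (circles) and replicate 2 (squares) of the metabolic hormone receptors with a mean of at least 1 FPKM (left), receptors of neuropeptides named or related to those named (middle), and transcription factors of arcuate neurons with steroid receptors (right). Most pairs nearly coincide, with Ramp3 at 1.62 and 4.31 apart, and Nr3c1, Otp and Nkx2-1 lead the factors at 10.5 to 14.4 FPKM.

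Markers of cell types bear on the label, which gives the tissue as brain, while the methods of the study name the dissected ARC. All 12 neuron markers had a mean of at least 10 FPKM, beside 29.0% of all genes. *Uchl1* and *Snap25* stood at 442 and 469 FPKM and at 417 and 433 FPKM. The marker lists differ in length and members, so their levels do not rank cell types. Oligodendrocyte markers summed to 1780 and 1914 FPKM, with *Mbp* and *Mobp* among the highest. Astrocyte markers summed to 855 and 874 FPKM, led by *Aldoc* at 307 and 339 FPKM. Microglia were seen through *C1qa* and *Csf1r*, at 24.0 and 23.7 and at 16.7 and 16.6 FPKM. *Aif1* was lower in replicate 2, at 2.57 and 1.40 FPKM, the one gene of 10 that differed (10%, beside 2.21% of all genes). Endothelial genes were lower, *Ly6c1* and *Itm2a* standing at 19.2 to 25 FPKM. Tanycytes, which line the floor of the third ventricle beside the arcuate, showed 13 of 14 markers at 1 FPKM or more, with *Col25a1* at 22.9 and 20.7 FPKM and *Dio2*, the deiodinase that activates thyroid hormone, at 2.52 and 2.34 FPKM. *Ttr*, the leading gene of choroid plexus, was at 0.246 and 0.253 FPKM, and of 9 lymphocyte markers 3 were in the table and 0 reached 1 FPKM.

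Genes of vessels and blood were present. Of mural cell genes, *Vtn* stood at 31.4 and 23.9 FPKM and *Rgs5* at 18.5 and 17.2 FPKM. Endothelial *Cldn5*, of tight junctions, was the one gene of its 11 that differed (9.09%, beside 2.21% of all genes), at 8.15 and 12.4 FPKM (ratio 1.53). Haemoglobin genes of red blood cells stood between 13.3 and 33.3 FPKM, and as *Hba-a1* and *Hba-a2* are near-identical, like *Hbb-bs* and *Hbb-bt*, reads may have been divided among them. Ependymal cells, whose cilia move the fluid of the ventricle, were seen through *Foxj1* at 5.84 and 6.64 FPKM and *Ccdc153* at 7.45 and 6.20 FPKM. *Spag16* was the one of the 10 listed that differed (10%, beside 2.21% of all genes), at 1.08 and 0.536 FPKM. Markers of oligodendrocyte precursors had lower levels than those of mature oligodendrocytes, with *Gpr17* at 15.4 and 18.5 FPKM and *Cspg4* at 3.74 and 3.87 FPKM. Of 18 reference genes often used to scale a PCR, none passed 1.5-fold, beside 2.21% of all genes. *Gapdh* stood at 433 and 446 FPKM, *Actb* at 304 and 306 FPKM and *Ppia*, which encodes cyclophilin A, at 616 and 603 FPKM. The widest of the 18 was *Tfrc*, at 19.9 and 15 FPKM.

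Nuclei and regions around the arcuate were also seen. Ventromedial markers *Fezf1* and *Nr5a1* stood at 7.54 and 7.50 FPKM and at 4.39 and 4.19 FPKM, *Foxb1* of the mammillary nuclei at 6.82 and 7.26 FPKM, and *Sim1* of the paraventricular nucleus at 2.71 and 2.28 FPKM. All 8 paraventricular and supraoptic markers had ratios below 1 (median log2 ratio -0.17), beside 7911 of the 15628 genes compared. None of the 8 passed 1.5-fold, beside 2.21% of all genes. The suprachiasmatic list, which shares *Avp* with them, had 8 of 10 below 1, with a median of -0.23.

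A few marker lists held several genes that differed between the libraries. The lists were chosen with earlier results of these data known, so their shares are descriptions and give no independent support. Fibroblast markers were lower in replicate 2 for 8 of 9 genes (88.9%, beside 1.44% of all genes), with a median log2 ratio of -0.72 beside 0.00 over all genes. *Dcn*, a collagen-binding proteoglycan, stood at 9.80 and 5.87 FPKM, *Slc6a13*, a GABA transporter of leptomeninges, at 6.96 and 3.65 FPKM, and *Col1a2* at 5.20 and 3.14 FPKM. *Ptgds*, *Igfbp2*, *Col1a1*, *Col3a1* and *Lum* were lower too, and *Pdgfra*, which precursors of oligodendrocytes also express, did not, at 12.3 and 11.4 FPKM. All 3 perivascular macrophage markers compared (*Mrc1*, *F13a1* and *Cd163*) were lower too (100%, beside 1.44% of all genes), with a median of -0.72. Of mural cell markers *Tagln* was the one of 9 that differed (11.1%, beside 2.21% of all genes), at 2.56 and 1.16 FPKM, and the list had a median of -0.13. *Igf2* of the precursor list, which meninges are known to express, stood at 26.0 and 12.3 FPKM. The other way, thalamic markers were higher in replicate 2 for 4 of 7 genes (57.1%, beside 0.768% of all genes), with *Prkcd* at 3.31 and 8.82 FPKM, *Gbx2* at 0.249 and 0.860 FPKM, *Ramp3* at 1.62 and 4.31 FPKM and *Tcf7l2* at 4.21 and 7.18 FPKM. *Calb2*, *Rora* and *Lef1* of that list had ratios of 1.07, 1.10 and 1.06. The lists of neurons, astrocytes, oligodendrocytes and their precursors, and tanycytes had 0 genes past the rule, beside 2.21% of all genes. The part of dissection in these differences was not tested.

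Gene by gene, the 10 with the widest excess in replicate 2 were *Slc17a7*, *Pomc*, *Shox2*, *H2aw*, *Slc6a3*, *Gbx2*, *Abhd12b*, *Gabrd*, *Ramp3* and *Prkcd*, with ratios from 7.11 to 2.68. *Shox2*, a homeodomain factor, rested on 84 and 304 counts, and *H2aw*, a histone gene that overlaps *Trim17*, on 65 and 234 counts. *Ptgds* alone of all 345 had a mean of at least 100 CPM (803), and *Pomc* and *Igf2* were next at 80.5 and 78.9 CPM. In replicate 1 the 10 were *Xntrpc*, *Fmod*, *Cpt1b*, *Ch25h*, *H2-Q1*, *Gp1bb*, *Slc6a12*, *Slc22a6*, *Gypc* and *Mrc1*, from 3.55-fold to 2.53-fold lower in replicate 2. *Fmod*, which encodes the collagen-binding fibromodulin, had the firmest of these, at 8.71 and 2.88 FPKM from 1690 and 528 counts. *Slc6a12* and *Slc22a6* are transporters known from the leptomeninges. *Xntrpc* is a readthrough of *Xndc1* and Trpc2, *H2-Q1* has close relatives in its family, and *Gp1bb* overlaps Septin5, so the counts of these 3 are uncertain. Of the 345 genes, 95 had predicted names and are not named, and 35 had a mean of at least 10 CPM (11 higher and 24 lower).

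**Figure D4:**
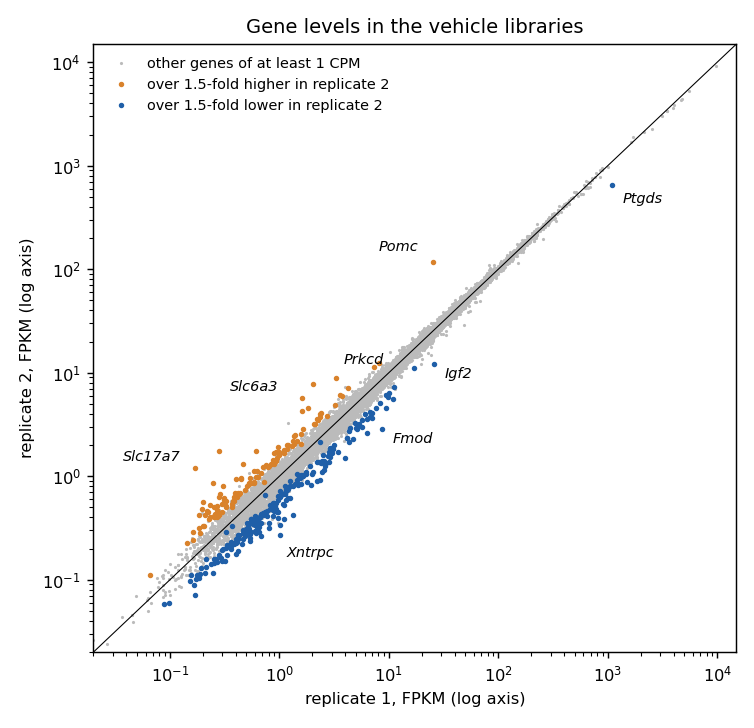
FPKM in vehicle replicate 1 (x axis, log scale) against replicate 2 (y axis, log scale) for the 15628 genes of at least 1 CPM, with the line of equality. The 120 genes higher in replicate 2 and the 225 lower by the 1.5-fold rule on scaled counts are coloured and lie mostly under 10 FPKM, with Pomc, Igf2 and Ptgds labelled at higher levels.

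**Figure D5:**
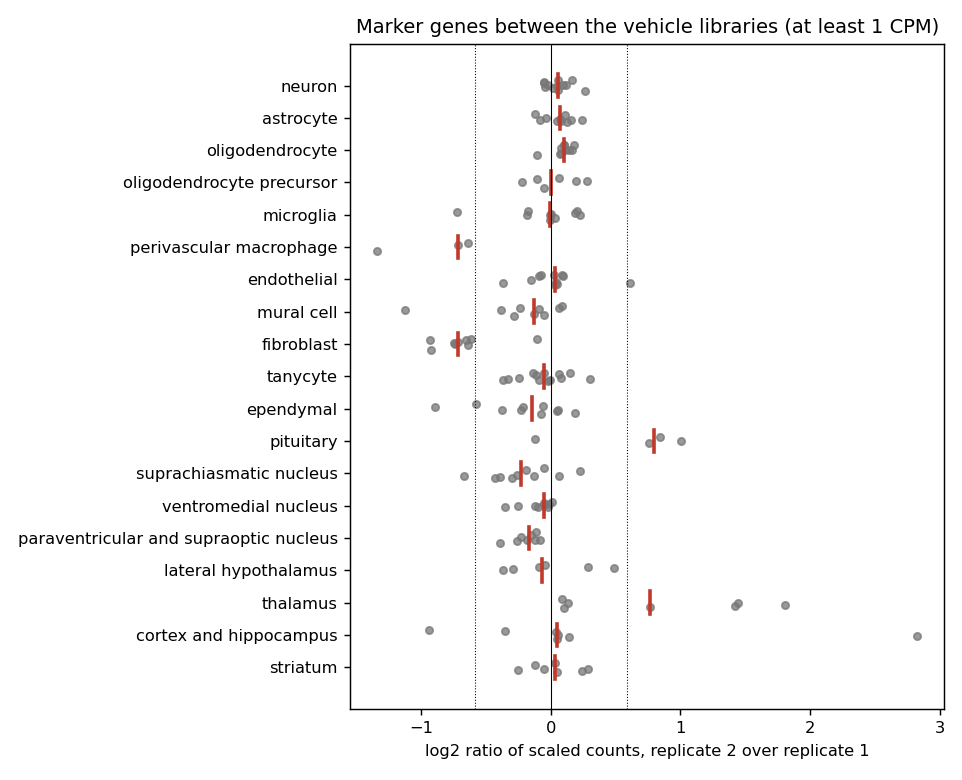
Log2 ratio of scaled counts, replicate 2 over replicate 1 (x axis), of the marker genes of each list with a mean of at least 1 CPM (points), with the median of the list (red bar). Dotted lines mark 1.5-fold. The fibroblast and perivascular macrophage medians are both at -0.72 and the thalamic median is at 0.77, while the neuron median is at 0.05.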

How the data were processed

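Hypothalamic ARC tissue of male mice was sequenced as poly(A) RNA in 6 libraries on an Illumina HiSeq instrument, and the 2 vehicle libraries were used here. As the methods of the study give it, the authors removed low-quality reads, adapters, contaminant DNA and PCR duplicates, ran HISAT2 2.1.0 and Bowtie2 2.3.4.1 on mm10, built transcripts by StringTie 2.1.3b, and took out genes with 0 counts in any of the 6 libraries. The counts the authors deposited are whole reads per gene, not normalized. The FPKM values the authors deposited are normalized for transcript length and for mapped reads. Because of the filter the lowest count is 1, and a gene absent from 1 library of another group is missing as well. The deposited table also holds TPM, normalized log2 values, group means, fold changes and p-values of the authors' comparisons, and none of these were used.

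Levels were read from FPKM. Ratios of replicate 2 over replicate 1 were taken from counts divided by TMM-scaled library sizes (edgeR 4.0.16 in R 4.3.3). Exact binomial 95% intervals came from the split of a gene's reads (scipy 1.17.1) and cover counting error only. They were tested on data simulated with counting error alone, which says nothing of spread between libraries. With 1 group of 2 libraries no test was made. A mean of at least 1 CPM was asked for ratios, and none for levels. Genes named were the highest by mean FPKM of the table and of each list, the defining genes of the arcuate nucleus, and the 10 widest ratios each way among genes without predicted names. The nuclear ranking and other members named for a difference were chosen after their values were seen. A few listed genes go unreported. Members and lists were chosen with earlier results of these data known. Positions and promoters come from RefSeq (GRCm38.p6, which mm10 is built on), by gene ID, with 21404 of 21461 genes found. Alternatives were other scaling (total counts, size factors of DESeq2 1.42.0), other filters, FPKM ratios and single libraries.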

Additional observations from a re-analysis of the deposited data

How the results depend on the processing

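No paired analysis was possible because a single group of libraries was used. The 345 genes that differed between the libraries became 348 with total counts, 343 with DESeq2 size factors, 412 by FPKM ratios and 345 with no counting interval. The filter moved the count, to 926 with none and to 35 at a mean of at least 10 CPM, where fewer or more genes of low counts enter. In alternatives added after the data were seen, 260 were protein-coding and 317 passed 1.5-fold in FPKM too. The 13909 genes at 1 FPKM or more were 13882 to 13962 in single libraries, 13678 with both libraries at 1 or more and 16545 with FPKM rescaled to TPM. Of the 20 highest genes, 19 to 20 were among the 20 highest in single libraries, and 12 among the 20 with the highest CPM, which are not divided by length. Their share of 16.8% was 16.4% to 17.1% in single libraries, and 5.28% for the 20 highest with mitochondrially encoded genes left out, an alternative added after the data were seen. The neuropeptide share of 0.938% was 0.930% to 0.946% in single libraries, 0.479% of counts and 1.11% with mitochondrially encoded genes left out. Named levels have no check from single libraries, since with 2 libraries each lies within an SD of the mean by construction. That of *Pomc* was 71.5 FPKM, and 25.3 and 118 in single libraries. Rescaled to 1 total, all 51 levels recomputed moved by less than their SD. Depth limits genes under 10 counts, 9.34% and 10.2% of the table, and 2 libraries limit every statement on spread.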

Other observations

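The circadian clock could be read in full, since all 20 listed genes were in the table at a mean of at least 1 FPKM and none passed 1.5-fold between the libraries, beside 2.21% of all genes. *Tef* stood at 60.1 and 59.4 FPKM and *Dbp*, a target of CLOCK and BMAL1, at 36.8 and 33.2 FPKM, in replicates 1 and 2. *Arntl*, which encodes BMAL1, stood at 7.10 and 7.33 FPKM. *Per1*, which glucocorticoids are known to induce, stood at 14.6 and 13 FPKM, and *Per2* at 6.11 and 5.68 FPKM. Their ratios lay between -0.27 and 0.35 on the log2 scale.

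Immediate early genes had a median of 2.98 FPKM. *Jun* led at 13.4 and 14.9 FPKM, then *Egr1* at 11.4 and 13.6 FPKM and *Fos* at 7.16 and 7.99 FPKM. Of the 19 compared, 0 passed 1.5-fold, beside 2.21% of all genes. Of long noncoding RNAs, *Meg3* held more counts than any nuclear gene, 446580 in replicate 1, and stood at 688 and 687 FPKM. *Rian*, from the same imprinted cluster, stood at 206 and 204 FPKM. *Malat1* stood at 68.5 and 49.1 FPKM (ratio 0.72). *Hspa1a*, a heat shock gene, stood at 3.73 and 5.99 FPKM and was among the genes higher in replicate 2, while *Hspa8* stood at 714 and 767 FPKM.

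Deposited FPKM and counts did not always give one ratio. Across the 15628 genes of at least 1 CPM their log2 ratios correlated at r = 0.946 (genes are not independent), and for 39 genes they differed by more than 1.5-fold. *Psma3*, a proteasome subunit, stood at 48.5 and 28.8 FPKM with 4214 and 3655 counts, a log2 ratio of -0.75 in FPKM and of -0.11 in scaled counts. *Cnot4* stood at 3.94 and 7.33 FPKM with 3077 and 2872 counts, and *Opcml* at 10.1 and 15.7 FPKM with 8709 and 7883 counts. No gene passed 1.5-fold in opposite directions. Why they differ was not tested.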
